A study of Mus musculus with 16 samples.

Results

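Constitutive promoter regions were stretches of open chromatin at the starts of protein-coding genes that carried an ATAC-seq peak in bone marrow-derived macrophages (BMDMs) under each of 4 treatments. ATAC-seq finds DNA that the Tn5 transposase can reach, and a peak is a place where its insertions pile up. Overlapping peaks of the 4 deposited peak lists were merged into 37648 regions, and the members were chosen by a peak in every list and by a midpoint at most 1 kb from the transcription start site (TSS) of a protein-coding transcript. This gave 10362 members, or 27.5% of all merged regions and 39.2% of the 26439 regions with a peak in all 4 lists. Presence in the lists is a measured value, so the shares of regions that kept a peak are a description and carry no test.

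Per the methods, the BMDMs came from female C57BL/6J mice aged 8 to 10 weeks and were matured in medium conditioned by L cells. All groups were deprived of serum for 1 day before treatment on day 8. The Veh group received DMSO for 3 h, and the T0 group received 500 nM T0901317 (T0), an agonist of the liver X receptors (LXRs), for 3 h. The LPS group received DMSO and the T0-LPS group received 500 nM T0, each for 3 h, and then 10 ng/mL lipopolysaccharide (LPS) was added to the same medium for 2 h. The LPS groups were therefore also cultured longer than the Veh and T0 groups, and LPS and the extra time cannot be told apart. Each group had 4 libraries of 50000 cells, 16 in all, and 1 pooled peak list per group was used here. No value per library and no depth was available for the lists, so differences between groups have no replicate error and no test, and the intervals given for shares (95%, Wilson) cover counting error only.

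A promoter is the DNA around a gene's start where general transcription factors and RNA polymerase II assemble. Promoters of widely used genes are often rich in CpG dinucleotides and stay free of nucleosomes in most cell types. Promoters of inducible genes in macrophages more often carry binding sites for signal-driven factors such as NF-κB and AP-1 and for the lineage factor PU.1. LXRs are sterol-sensing nuclear receptors that activate genes of cholesterol export and fatty acid synthesis, and LPS acts through Toll-like receptor 4 (TLR4) to activate NF-κB.

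The promoter sequences of 9 members are shown as examples and do not stand for all members of their kind. They are very strong members with little difference between lists (Hsd17b7, Cenpf and Hmgcs1), members with higher ranks under LPS (Tlr2, H2-Q6, Cxcl10 and Nfkbia) and members with lower ranks under LPS (Ptgs1 and Hpgds). All are from RefSeq promoter windows or the matching genome on build GRCm38.p6, and Hmgcs1, Cxcl10, Nfkbia and Ptgs1 were chosen for display after their values were seen. Stretches in annotated untranslated regions were left out, except for 30 bases around the Hpgds site. In the first 3 sequences capitals mark CCAAT boxes, read as CCAAT or ATTGG, and 1 ETS letter match in Cenpf. Hsd17b7 lies at chr1:169969242-169969455 on the minus strand, Cenpf at chr1:189688087-189688336 on the minus strand and Hmgcs1 at chr13:119690101-119690350 on the plus strand.
Hsd17b7: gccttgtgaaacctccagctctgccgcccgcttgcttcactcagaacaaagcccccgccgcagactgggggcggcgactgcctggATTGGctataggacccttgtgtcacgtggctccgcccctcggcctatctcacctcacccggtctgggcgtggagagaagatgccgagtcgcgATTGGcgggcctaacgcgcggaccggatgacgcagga
Cenpf: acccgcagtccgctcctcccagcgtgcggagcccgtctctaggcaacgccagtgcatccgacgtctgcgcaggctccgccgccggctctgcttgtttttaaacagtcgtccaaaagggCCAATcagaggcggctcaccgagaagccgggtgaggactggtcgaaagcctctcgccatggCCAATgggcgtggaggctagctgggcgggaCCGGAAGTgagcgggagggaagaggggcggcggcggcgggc
Hmgcs1: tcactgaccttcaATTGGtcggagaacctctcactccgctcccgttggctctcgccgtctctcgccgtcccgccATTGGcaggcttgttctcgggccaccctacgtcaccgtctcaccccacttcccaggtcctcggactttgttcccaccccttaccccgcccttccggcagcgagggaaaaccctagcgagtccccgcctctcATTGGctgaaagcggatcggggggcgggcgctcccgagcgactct
In the next 4 sequences capitals mark matches to the 10-letter NF-κB consensus and, in H2-Q6, also CCAAT boxes. Tlr2 lies at chr3:83841768-83841858 on the minus strand, H2-Q6 at chr17:35424600-35424849 on the plus strand, Cxcl10 at chr5:92348890-92349139 on the minus strand and Nfkbia at chr12:55492648-55492897 on the minus strand.
Tlr2: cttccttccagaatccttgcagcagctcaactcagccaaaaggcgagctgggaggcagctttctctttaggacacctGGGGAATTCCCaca
H2-Q6: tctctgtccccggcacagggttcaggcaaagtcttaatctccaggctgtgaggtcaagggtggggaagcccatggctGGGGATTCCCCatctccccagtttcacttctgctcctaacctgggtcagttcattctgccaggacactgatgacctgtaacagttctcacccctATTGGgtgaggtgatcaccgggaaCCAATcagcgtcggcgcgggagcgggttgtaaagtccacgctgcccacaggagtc
Cxcl10: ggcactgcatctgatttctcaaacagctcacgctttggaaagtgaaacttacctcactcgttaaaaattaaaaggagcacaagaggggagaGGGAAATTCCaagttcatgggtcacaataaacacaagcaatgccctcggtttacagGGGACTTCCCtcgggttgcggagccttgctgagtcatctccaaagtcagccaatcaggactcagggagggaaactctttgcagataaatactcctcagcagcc
Nfkbia: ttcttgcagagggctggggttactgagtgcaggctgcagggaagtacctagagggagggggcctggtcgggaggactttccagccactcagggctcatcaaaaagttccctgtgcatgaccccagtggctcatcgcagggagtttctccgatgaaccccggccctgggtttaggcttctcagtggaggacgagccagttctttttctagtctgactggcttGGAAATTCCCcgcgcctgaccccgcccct
In the last 2 sequences capitals mark a PU.1 letter match. Ptgs1 lies at chr2:36230176-36230425 on the plus strand and the Hpgds stretch at chr6:65144761-65144790 on the minus strand.
Ptgs1: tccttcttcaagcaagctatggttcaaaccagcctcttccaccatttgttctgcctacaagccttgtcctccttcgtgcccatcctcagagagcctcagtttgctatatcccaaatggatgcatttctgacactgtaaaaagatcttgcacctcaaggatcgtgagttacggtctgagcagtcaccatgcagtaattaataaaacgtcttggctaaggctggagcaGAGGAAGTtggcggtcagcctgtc
Hpgds: gcttttaggtgGAGGAAGTggcctctggct
Each of the first 3 windows held at least 2 CCAAT boxes, and Hmgcs1 held 3. Tlr2 and H2-Q6 each held a pair of overlapping NF-κB matches that lay 173 to 163 bases before the RefSeq start in both genes. Cxcl10 held NF-κB matches 159 to 150 and 103 to 94 bases before its start, and Nfkbia held 1 match 29 to 20 bases before its start. A letter match is a description of the sequence and not evidence of a bound factor. Most members that moved with LPS lacked these letters. In the 300 bp around the midpoint, the NF-κB consensus was in 11.6% of members higher with LPS in both comparisons described below. The PU.1 letters were in 8.79% of those lower in both. The RefSeq windows of Ifi205, Acot7, Gramd1a and Socs3, also higher under LPS, held no NF-κB match, whereas that of Mtmr14 did.

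The cell type in the labels was checked against marker genes. Of 10 macrophage markers, 8 had a constitutive promoter region, among them Spi1, Cd68, Adgre1, Lyz2 and Cd14. The other two had a peak in some lists, with Csf1r listed in LPS and T0-LPS and Mrc1 in every list but T0. Of 31 markers of T cells, B cells, neutrophils, erythroid cells, fibroblasts, hepatocytes and neurons, 3 had a member, Ms4a1 and S100a8 among them. The lists held 29839 to 35551 peaks, and the authors had limited them to regions that carry active histone marks in other macrophage data, so a promoter missing here may have been removed by that step.

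The members sat on the start sites themselves. The median midpoint lay 4 bp upstream of the nearest TSS, with quartiles from 86.75 bp upstream to 80 bp downstream, and 56.3% of midpoints (55.4 to 57.3) lay within 100 bp. The 100 bp bins on either side of the TSS held 3064 and 2758 members, whereas the outermost bins of the 1 kb window held 64 and 69. The rule limits the midpoint to this window but does not place it within the window. Of the members, 88.1% spanned the nearest TSS, 36.4% had their midpoint in an untranslated region, 29.8% between genes, 22.5% in an intron, 8.22% in a coding exon and 3.01% in a non-coding exon. Start sites of at least 2 genes fell within 1 kb of 11.05% of members, and for 10.3% these genes lay on both strands. Peaks carry no strand, so the signal of such gene pairs cannot be divided between them. At the edge of the rule, Smc4, Ampd3 and Agap1 were just inside with midpoints 999, 997 and 996 bp downstream, and S100a3, Tle1 and Alg9 were just outside at offsets of 1002, 1002 and -1003 bp, where a negative offset lies upstream.

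**Figure D1:**
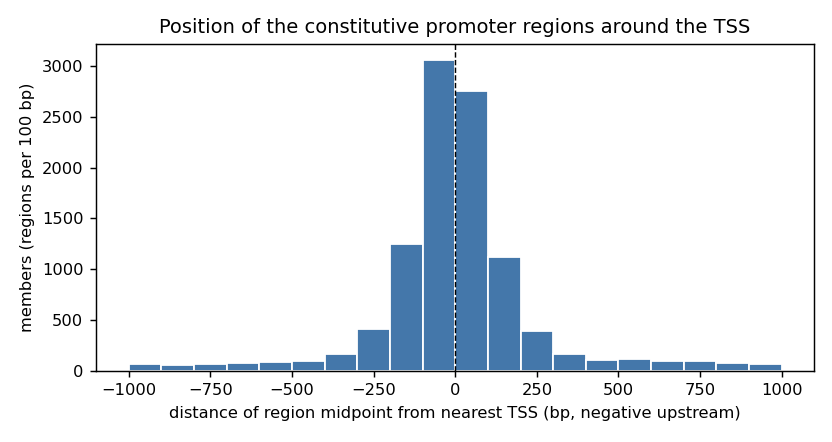
Number of constitutive promoter regions by distance of the region midpoint from the nearest protein-coding TSS, in bins of 100 bp, with negative values upstream on the gene's strand. Most members lie in the bins next to the TSS, which hold 3064 and 2758 of the 10362.

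Members covered the starts of 10346 of 21840 protein-coding genes, or 47.4%. The share was 48.6% on the autosomes (10056 of 20696), 30.3% on the X chromosome (287 of 948) and 3 of 183 genes on the Y chromosome, and what sets the autosomes and the X chromosome apart was not tested. The mice were female, so the 3 Y chromosome genes are not read as open promoters of that chromosome. The source of their reads was not tested. Most of these genes, 9260, had 1 member, 990 had 2 and 96 had 3 or more. Of all 12760 promoter regions with a peak in any list, 81.2% had a peak in all 4, against 64.6% of the 24888 other regions. Promoter regions that missed 1 list lacked the T0 list in 505 of 791 cases, the T0-LPS list in 212, the LPS list in 59 and the Veh list in 15. Promoter regions with a peak in 1 list had it in Veh in 558 of 915 cases, in LPS in 226, in T0-LPS in 101 and in T0 in 30. The Veh list was also the longest and the T0 list the shortest, and the part of list length in these counts was not tested. Within deciles of Veh scores, promoter regions kept a peak in all 4 lists more often than other regions, with a gap that narrowed in the upper deciles. The shares were 13.6% (11.6 to 15.8) against 7.60% (6.60 to 8.74) in decile 1, the lowest, and 69.4% (66.4 to 72.3) against 46.6% (44.6 to 48.5) in decile 3. In decile 6 they were 99.5% against 95.1%. In decile 10 they were 99.4% (99.0 to 99.7) against 99.0% (98.4 to 99.4), and these intervals overlap.

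The deposited files give each peak a score, and the score of a region was taken as that of its highest peak. The members' median score was 555 in Veh, 406 with T0, 474 with LPS and 424 with T0-LPS, and that of the other regions in all 4 lists was 458, 307, 352 and 294 in the same order. Scores depend on how many reads entered a list, so each region was also given a rank, its percentile from 0 to 100 among the 26439 regions with a peak in all 4 lists. The median rank of the members was 57.8 in Veh, 59.4 with T0, 60.3 with LPS and 61.9 with T0-LPS. Regions over 10 kb from any TSS had median ranks of 49.2, 47.4, 46.5 and 45.3 in the same lists. The members were thus above the middle in every list and further from the distal regions under LPS than under Veh. They made up 703 of the 1000 regions with the highest mean rank over the lists and 373 of the 1000 with the lowest, so both ends of the range held many promoters.

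Members were also wide. The median width of their peaks came to 566 bp in Veh, 480 bp with T0, 534 bp with LPS and 509 bp with T0-LPS, against 407, 345, 370 and 352 bp for distal regions. Of the 421 regions with a mean width of 1000 bp or more, 379 were members. Among the 9513 members with 1 peak in each list, 86.2% (85.5 to 86.9) were narrower in T0 than in Veh, with a median difference of -10 percent, and 88.6% (88.1 to 89.1) of the comparable other regions were narrower too. In LPS 65.9% were narrower than in Veh, and in T0-LPS 39.7% were narrower than in T0. The total peak length of the lists moved the same way, at 15.5 Mb for Veh, 11.9 Mb for T0, 13.9 Mb for LPS and 12.6 Mb for T0-LPS, and its part in these differences was not tested.

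**Figure D2:**
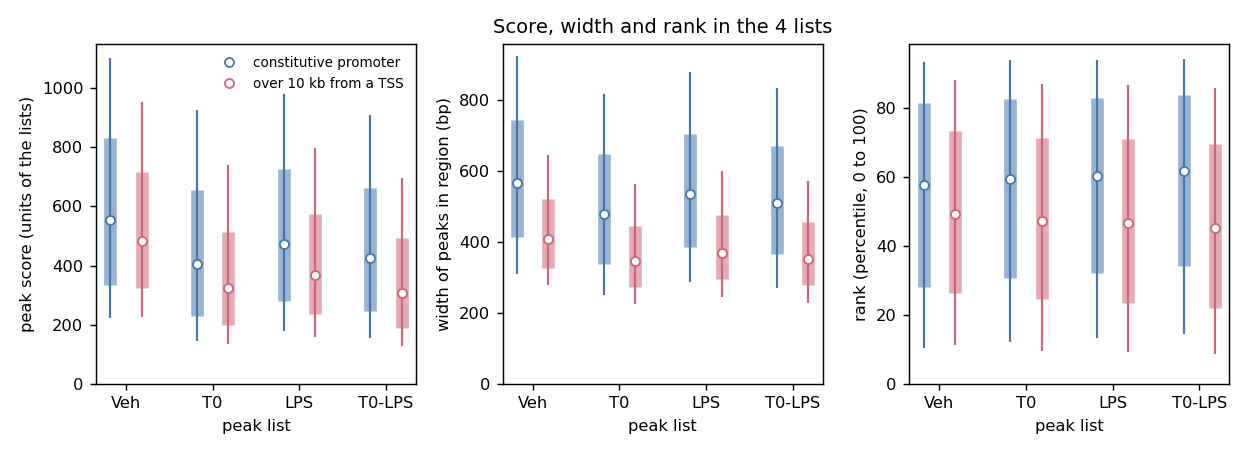
Peak score, summed peak width (bp) and rank (percentile among 26439 regions) of members and of regions over 10 kb from a TSS in each peak list, with the median as a point, the quartiles as a thick bar and percentiles 10 to 90 as a thin line. Members have a median rank of 57.8 to 61.9 and a median width of 480 to 566 bp, and distal regions 45.3 to 49.2 and 345 to 407 bp.

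By mean rank the members were divided into 4 strength groups of equal size, 1 being the weakest and 4 the strongest. From group 1 to group 4, the median width went from 338 to 672 bp, the share that spanned the TSS from 74.6% to 97.3% and the share with genes on both strands within 1 kb from 8.18% to 12.9%. The members named here were picked among those with 1 peak in each list. Members with very high mean ranks were Kbtbd8, Arl13b, Pitrm1, Cenpf, the shared start of Umad1 and Rpa3, Msantd4 and Hsd17b7. Cenpf, a kinetochore protein, scored 1807 in Veh, 1611 with T0, 1721 with LPS and 1654 with T0-LPS. Hsd17b7, an enzyme of cholesterol and steroid synthesis, scored 1756, 1550, 1745 and 1649 in that order. The rank of each of these 7 members differed by under 1 point between lists. The lowest were Prelid3a, Larp4b, Vcan and Gm10717, and Vcan, the proteoglycan versican, scored 113 in Veh, 51 with T0, 65 with LPS and 62 with T0-LPS. The widest were Setd5, Nfe2l2, Zzz3, Gm10722 and Cpeb2. Nfe2l2, which encodes the antioxidant regulator NRF2, spanned 1592 bp in Veh, 1446 bp with T0, 1541 bp with LPS and 1588 bp with T0-LPS. Gm10717 and Gm10722 lie in a repeated stretch of chromosome 9, where reads may map to several copies, so their values are uncertain.

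The base composition of members was unlike that of the other regions. In the 300 bp around the midpoint, the median GC content was 65.3% and the CpG ratio, the observed over the expected number, was 0.83, against 48.7% and 0.23 for other regions in all 4 lists. With a CpG-rich window defined as at least 50% GC and a ratio of at least 0.6, 79.4% of members and 6.71% of other regions were CpG-rich. The CpG-rich share went from 71.1% in strength group 1 to 86.3% in group 4. Among RefSeq promoter windows, from 250 bases before to 50 after the start, 78.3% of those that overlap a member and 18.1% of those without any peak were CpG-rich. Over 5 groups of members of equal size and rising GC content, the median mean rank was 51.3, 63.0, 65.1, 61.7 and 54.99, so it was highest in the group of middling GC content. In LPS against Veh the share called lower was 14.95% in the group of lowest GC and 6.13% in that of highest GC, and the shares called higher were 17.0% and 20.7%.

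Letter motifs were searched on both strands of 20143 RefSeq promoter windows, matched by symbol to 16515 of 21840 genes. The GC box GGGCGG, bound by SP and KLF factors, was in 69.9% of the windows that overlap a member, in 27.3% of the windows without a peak and in 47.7% of all windows. The ETS letters CCGGAAGT were in 10.4%, 0.906% and 5.35%, the NRF1 letters GCGCATGC in 6.39%, 1.26% and 3.65%, and the YY1 letters AAGATGGCG in 3.86%, 0.292% and 1.92% of the same sets. These 4 motifs hold C or G in most positions and the windows of members are GC-rich, and the part of GC content in the shares was not tested. In the other direction, the TATA letters TATAAA were in 5.44%, 18.3% and 12.1%, and the AP-1 letters TGANTCA in 4.37%, 9.37% and 7.00%. CCAAT, bound by NF-Y, was in 40.5%, 36.4% and 37.8%, and the NF-κB consensus in 4.90%, 4.77% and 4.97%. The PU.1 letters GAGGAAGT, which share their last 6 letters with the ETS motif, were in 3.49%, 2.78% and 3.11%. The CCAAT share went up with the strength of members: in the 300 bp around the midpoint it was in 24.9% (23.2 to 26.6) of strength group 1 and 49.7% (47.7 to 51.6) of group 4, whereas the GC box went from 62.3% to 73.9% and AP-1 from 7.10% to 3.67%.

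Gene families differed in how many of their genes had a constitutive promoter region, against 47.4% of all protein-coding genes. Among housekeeping families, 35 of 36 aminoacyl-tRNA synthetase genes, which charge tRNAs, had a member, as did 77 of 83 cytosolic ribosomal protein genes, 43 of 47 splicing factor genes and 70 of 78 mitochondrial ribosomal protein genes. Of 23 sterol synthesis genes 22 had a member, and so did 19 of 20 genes of the NF-κB pathway and 29 of 30 immediate early and feedback genes. Interferon-stimulated genes, with 23 of 29, were also above the share of all genes, and the interval of vacuolar ATPase genes crossed it, with 17 of 26 (65.4%, 46.2 to 80.6). Inflammatory effector genes were near it, with 16 of 33 (48.5%). Lower shares were found for chemokine genes, with 12 of 35 (34.3%, 20.8 to 50.8), and for interleukin genes and interleukin receptor genes with a matching symbol, with 8 of 37. Families used mainly in sensory neurons or epithelia were nearly empty, with 10 of 1091 olfactory receptor genes, 1 of 326 vomeronasal receptor genes (Vmn1r4) and 1 of 49 keratin genes (Krt10). Genes of large near-identical families, histones included, share reads, so their values are uncertain.

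**Figure D3:**
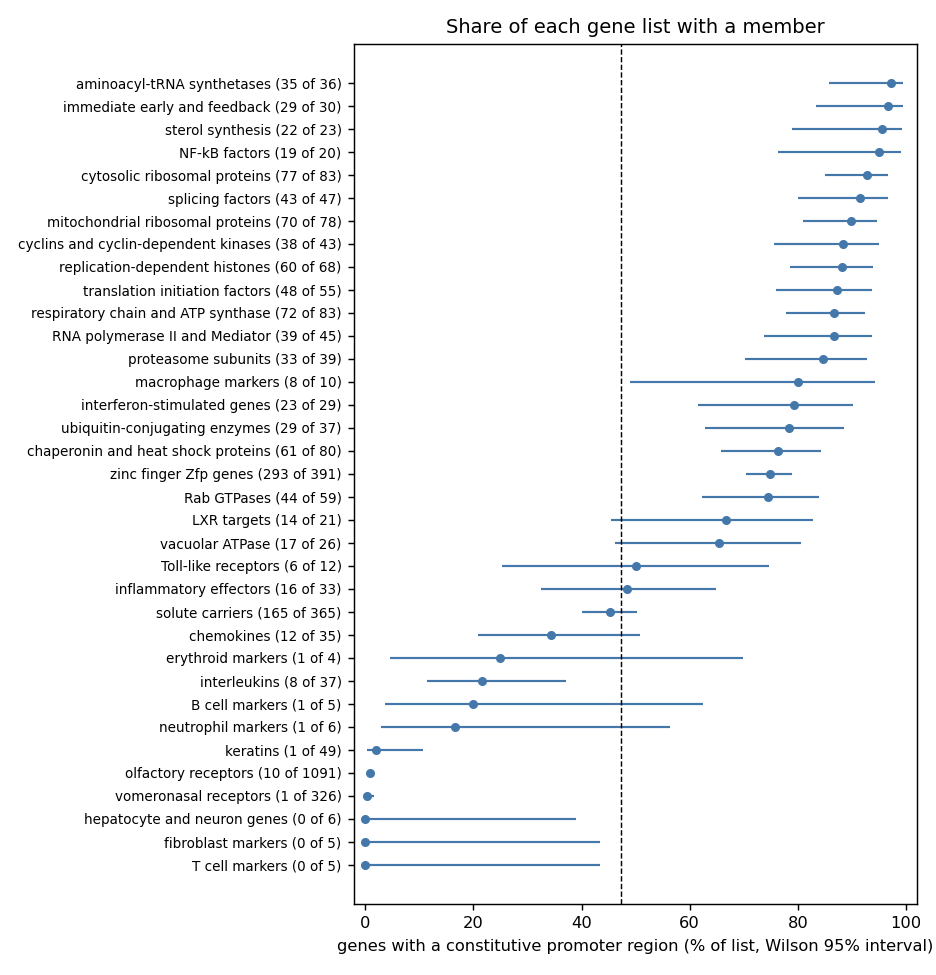
Percent of genes in each list that had a constitutive promoter region, with 95% Wilson intervals for counting error as bars and the 47.4% of all protein-coding genes as a dashed line. Sterol synthesis (22 of 23) and immediate early genes (29 of 30) lie with the housekeeping families, whereas interleukins (8 of 37), olfactory receptors (10 of 1091) and keratins (1 of 49) lie below the line, and the interval of chemokines (12 of 35) crosses it.

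Presence and strength were separate properties of the families. The median of mean ranks was 88.8 for sterol synthesis members, against 75.6 for chaperonin and heat shock genes, 53.0 for cytosolic ribosomal proteins, 35.9 for immediate early and feedback genes and 23.4 for chemokines. Hmgcs1, which encodes the cytosolic HMG-CoA synthase, scored 1721 in Veh, 1404 with T0, 1499 with LPS and 1403 with T0-LPS. Stard4, a cytosolic sterol carrier, scored 1832, 1790, 1557 and 1606 in that order. These promoters ranked near the top in every list. Immediate early genes, by contrast, had promoters that were open in every list at modest scores, such as Egr1 with 344 in Veh, 284 with T0, 354 with LPS and 299 with T0-LPS.

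For the effect of LPS, ranks in LPS were compared with Veh and ranks in T0-LPS with T0, 2 comparisons that share no list. A difference of at least 10 percentile points was called. In LPS against Veh, 1888 members ranked higher and 939 lower, or 18.2% and 9.06% of members, beside 18.1% and 19.0% of all regions in all 4 lists. In T0-LPS against T0, 1924 ranked higher and 1078 lower, or 18.6% and 10.4%, beside 18.5% and 19.7% of all regions. Members were thus called higher about as often as all regions and called lower less often. The other regions in all 4 lists were called lower in 25.4% and 25.6%. In both comparisons, 747 members ranked higher, 273 ranked lower and 282 moved in opposite directions, beside 8.77%, 9.30% and 2.54% of all regions. Of all members 4763, or 46.0%, stayed within 10 points in each of the 4 comparisons made, against 28.8% of the other regions.

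A fold limit gave fewer calls. When scores were divided by the median score of the list and a difference of 1.5-fold was called, 521 members were higher and 372 lower in LPS against Veh, beside 6.65% and 9.35% of all regions. In T0-LPS against T0 the counts were 816 higher and 365 lower, beside 9.47% and 9.48%. With percentiles among all peaks of the own list, 932 members were higher and 1375 lower in LPS against Veh, beside 10.3% and 24.6% of all regions, and 2123 were higher and 823 lower in T0-LPS against T0, beside 20.6% and 16.6%. The split of the members in LPS against Veh thus turned with the scale, while on each scale their lower calls stayed below the share of all regions. The rank calls fell mostly on weak and middling members: in LPS against Veh 29.7% of strength group 2 ranked higher and 13.8% lower, against 2.05% and 1.31% of group 4. Ranks near 100 leave little room to move, but the log2 ratio of scores also varied less in strong members, with an SD over members of 0.50, 0.35, 0.23 and 0.15 from strength group 1 to 4.

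The members with the largest differences toward higher ranks under LPS included Ifi205, Tlr2, Acot7, Mtmr14 and Gramd1a. Ifi205, of the interferon-inducible p200 family, scored 225 in Veh, 103 with T0, 712 with LPS and 514 with T0-LPS, and ranked 71.0 points higher in LPS than in Veh and 67.9 higher in T0-LPS than in T0. Its region lies at chr1:174031685-174032092, and both LPS lists were far above both lists without LPS. Tlr2, the receptor for bacterial lipoproteins, scored 181 in Veh, 126 with T0, 529 with LPS and 571 with T0-LPS at chr3:83841142-83841895, differences of 61.2 and 68.7 points. Its peak was also wider with LPS, at 247 bp in Veh, 254 bp with T0, 751 bp with LPS and 737 bp with T0-LPS. Acot7, an acyl-CoA thioesterase, scored 184, 111, 587 and 577 in the order Veh, T0, LPS and T0-LPS at an offset of -409 bp, differences of 66.5 and 72.2 points. Mtmr14, a phosphoinositide phosphatase, scored 253, 201, 694 and 675 in that order, and Gramd1a, which encodes a sterol transfer protein of the endoplasmic reticulum, scored 168, 70, 509 and 476. H2-Q6, a class I histocompatibility gene with close paralogs that may share its reads, scored 374 in Veh, 186 with T0, 588 with LPS and 728 with T0-LPS. In each of these 6 members the lower of the LPS lists was above the higher of the lists without LPS. They were picked for large rank differences in these comparisons, so this order follows largely from the choice and is no separate support.

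Feedback and NF-κB genes showed the same order in part. Socs3, a feedback inhibitor of cytokine signalling, scored 291 in Veh, 76 with T0, 445 with LPS and 474 with T0-LPS, with rank differences of 35.8 points in LPS against Veh and 66.6 in T0-LPS against T0. Nfkbia, which encodes the inhibitor IκBα, scored 332, 385, 494 and 417 in the same order, and ranked 35.0 points higher in LPS than in Veh but 4.48 points higher in T0-LPS than in T0. Its rank was also 28.9 points higher in T0 than in Veh, and both of these comparisons use the Veh list. Tnfaip3, a deubiquitinase that restrains NF-κB, scored 400, 343, 499 and 405 and ranked 25.1 points higher in LPS than in Veh. Over the 34 promoter regions of immediate early and feedback genes, 16 (47.1%) ranked higher and 2 (5.88%) lower in LPS against Veh, beside 18.1% and 19.0% of all regions. The median difference was 6.95 points, beside 1.49 points over all members. In T0-LPS against T0, 12 (35.3%) ranked higher and 2 (5.88%) lower, beside 18.5% and 19.7%, with a median of 7.15. Under the fold limit 9 (26.5%) were higher and 1 (2.94%) lower in LPS against Veh, beside 6.65% and 9.35% of all regions. In T0-LPS against T0 that limit gave 5 (14.7%) higher and 2 (5.88%) lower, beside 9.47% and 9.48%. The 2 lower in LPS against Veh were Fos, with scores of 298, 154, 173 and 228, and Myc, with scores of 346, 321, 182 and 183. Myc, a growth regulator, ranked 16.3 points lower in LPS than in Veh and 26.0 points lower in T0-LPS than in T0, while Fos ranked 10.2 points lower in LPS than in Veh and 16.9 points higher in T0-LPS than in T0.

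Of 23 promoter regions of NF-κB pathway genes, 6 ranked higher and 2 lower in LPS against Veh, or 26.1% and 8.70%, beside 18.1% and 19.0% of all regions. In T0-LPS against T0 3 ranked higher and 2 lower, or 13.0% and 8.70%, beside 18.5% and 19.7%. With 23 regions these rank shares lie within a few calls of those of all regions and are not read as a result. Under the fold limit 7 (30.4%) were higher and 1 (4.35%) lower in LPS against Veh, beside 6.65% and 9.35% of all regions. In T0-LPS against T0 that limit gave 3 (13.0%) higher and 2 (8.70%) lower, beside 9.47% and 9.48%, which is not read as a difference either. Nfkb1, the p105 and p50 subunit, scored 497 in Veh, 445 with T0, 669 with LPS and 505 with T0-LPS, and Birc3, a ubiquitin ligase of the pathway, scored 737, 531, 952 and 958. Bcl3, an atypical IκB protein, went the other way with 380, 196, 138 and 170. Rela, which encodes the p65 subunit, stayed within 10 points with 450, 306, 319 and 303. Traf1 had no constitutive promoter region, with a peak in LPS at a score of 255 and in T0-LPS at 183 only.

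Among 13 chemokine promoter regions, 5 (38.5%) ranked higher and 0 lower in LPS against Veh, beside 18.1% and 19.0% of all regions. In T0-LPS against T0, 8 (61.5%) ranked higher and 2 (15.4%) lower, beside 18.5% and 19.7%. Under the fold limit 4 were higher and 1 lower in LPS against Veh, beside 6.65% and 9.35% of all regions. In T0-LPS against T0 that limit gave 6 and 2, beside 9.47% and 9.48%. Cxcl10, an interferon-inducible chemokine, scored 297 in Veh, 149 with T0, 606 with LPS and 507 with T0-LPS, differences of 52.1 and 57.8 points. Cxcl16, a transmembrane chemokine that shares its region with Zmynd15, scored 53, 89, 199 and 295, and Ccl2, a monocyte attractant, scored 930, 661, 758 and 704 and stayed within 10 points. Of 24 regions of interferon-stimulated genes, 8 ranked higher and 3 lower in LPS against Veh, beside 18.1% and 19.0% of all regions, and under the fold limit 1 was higher and 1 lower. In T0-LPS against T0 the counts were 10 and 3 by rank and 5 and 0 by fold. Gbp2, a guanylate-binding protein, scored 347, 292, 654 and 550, whereas Ifit2, which binds viral RNA, scored 585, 406, 298 and 300. Nlrp3, the sensor of an inflammasome, scored 296 in Veh, 245 with T0, 417 with LPS and 498 with T0-LPS. Tnf, by contrast, had a promoter that stayed within 10 points at scores of 349, 207, 248 and 242.

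Housekeeping families also held members with higher ranks. In LPS against Veh, 15 of 56 regions of translation initiation factors ranked higher and 0 lower, 15 of 48 of splicing factors ranked higher and 4 lower, and 14 of 40 of RNA polymerase II and Mediator ranked higher and 2 lower. Of all regions 18.1% ranked higher and 19.0% lower in that comparison. In T0-LPS against T0 the counts were 15 and 0, 14 and 6, and 13 and 4, beside 18.5% and 19.7%. Under the fold limit far fewer remained in LPS against Veh, with 1 and 0, 0 and 0, and 3 and 0, beside 6.65% and 9.35%. In T0-LPS against T0 that limit gave 6 and 0, 4 and 1, and 5 and 1. The higher calls were 10.7%, 8.33% and 12.5% of these regions, near the 9.47% of all regions, and 9.48% of all regions were lower. Polr2j, a subunit of RNA polymerase II, scored 323 in Veh, 311 with T0, 485 with LPS and 373 with T0-LPS, and ranked 35.4 points higher in LPS than in Veh. Psmb9, a subunit of the immunoproteasome that shares its region with the peptide transporter gene Tap1, scored 283, 272, 426 and 313 in that order. Of the 26 sterol synthesis regions, 0 were called in either direction in LPS against Veh. Their median rank in Veh was 89.5, which leaves little room to rise. Members of strength group 4 were called in only 2.05% and 1.31%.

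Members with lower ranks under LPS included Hpgds, Il21r and Il7. Hpgds, the hematopoietic prostaglandin D synthase, scored 792 in Veh, 702 with T0, 248 with LPS and 169 with T0-LPS at chr6:65144587-65145277, and ranked 52.7 points lower in LPS than in Veh and 67.3 lower in T0-LPS than in T0. Il21r, the interleukin 21 receptor, scored 552, 399, 123 and 97 in that order at chr7:125603168-125603689, differences of -53.4 and -55.1 points. In both genes the lists with LPS were far below the lists without it, and both were picked for large falls in these comparisons. Ptgs1, the constitutive cyclooxygenase, was named after its values were seen and scored 480 in Veh, 405 with T0, 212 with LPS and 284 with T0-LPS. Il7, a lymphocyte growth factor, scored 759, 565, 335 and 360. Kcnn4, a calcium-activated potassium channel, scored 212, 312, 69 and 77 and was called lower in T0-LPS against T0, by 44.5 points. Its rank was 9.04 in Veh, which left no room for a fall of 10 points in LPS against Veh. There its rank was 8.82 points lower. In T0 its rank was 36.4 points higher than in Veh. Ptgs2, the inducible cyclooxygenase, stayed within 10 points in each comparison, with 734 in Veh, 616 with T0, 705 with LPS and 582 with T0-LPS.

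**Figure D4:**
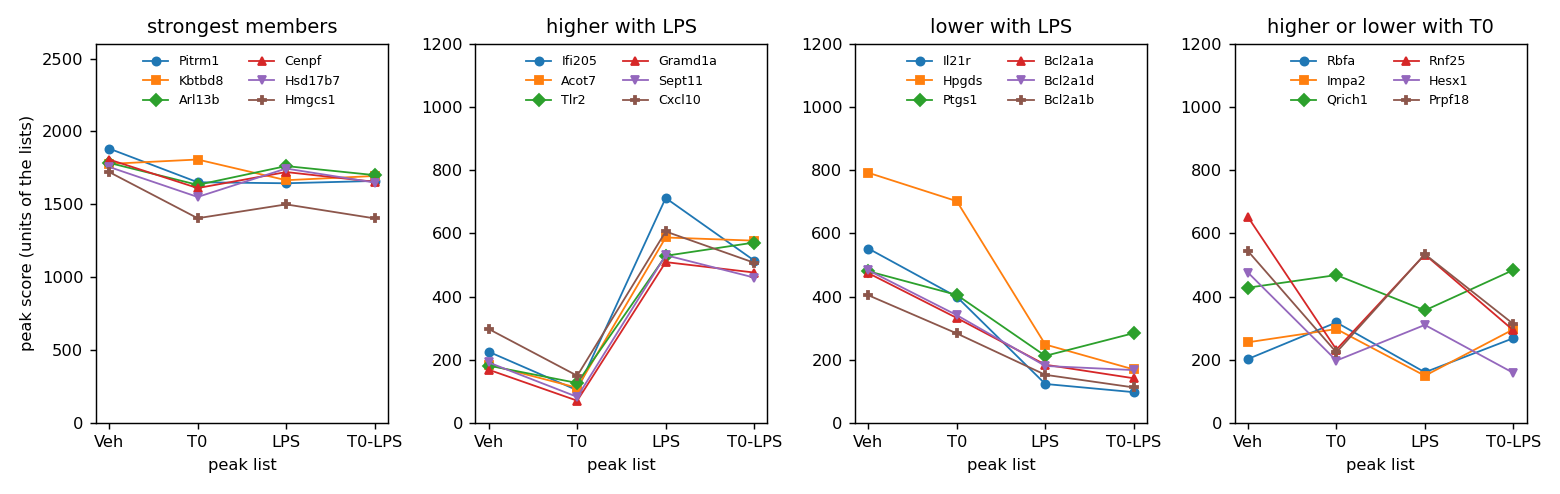
Peak score in each list for members of 4 kinds (strongest, higher with LPS, lower with LPS, higher or lower with T0), with a line that joins the 4 values of 1 region and no error bar because each group has 1 pooled list (the left panel has its own scale). Tlr2, Ifi205 and Cxcl10 score higher in both lists with LPS, and Hpgds and Il21r score lower in both.

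The sequences of the members that moved with LPS differed from those of members as a whole. In the 300 bp around the midpoint, the NF-κB consensus was in 11.6% (9.54 to 14.2) of the 747 members higher in both comparisons, in 5.80% of all members and in 4.03% (2.26 to 7.07) of the 273 lower in both. The PU.1 letters were in 8.79% (5.98 to 12.8) of the lower members, 3.88% of the higher and 3.66% of all. AP-1 was in 8.30% of the higher, 11.0% of the lower and 5.24% of all members. CpG-rich windows made up 73.1% of the higher members, 49.1% of the lower and 83.3% of those that stayed within 10 points in each comparison. Rank calls fell mostly on weak and middling members, and these shares also differed by strength. From strength group 1 to group 4 the CpG-rich share went from 71.1% to 86.3% and AP-1 from 7.10% to 3.67%. The part of strength in the shares of called members was not tested. The other regions in all 4 lists had AP-1 in 29.7% and PU.1 letters in 14.6%, so for both motifs the share in the members lower with LPS lay between that of all members and that of other regions.

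Members of 1 gene could differ in direction. Of 1086 genes with at least 2 members, 267 had a member called under LPS in both comparisons, in 11 of these genes members moved in opposite directions, and in 16 all members moved the same way. In the rest some members were not called in both comparisons. Mapkapk2, a kinase downstream of p38, had a region 39 bp downstream of the TSS with scores of 472 in Veh, 255 with T0, 546 with LPS and 529 with T0-LPS. A second Mapkapk2 region 808 bp downstream scored 335, 297, 116 and 62 in that order. Sept11, a cytoskeletal septin, had a region at an offset of -185 bp with 622, 586, 420 and 327 and a region at 596 bp with 191, 82, 531 and 460. The start region and its neighbour thus had opposite orders in both genes. The antiapoptotic genes Bcl2a1a, Bcl2a1b and Bcl2a1d each had an upstream region, 540 to 657 bp from the TSS, that ranked 30.2 to 36.1 points lower in LPS than in Veh. The Bcl2a1a upstream region scored 474, 332, 184 and 141, and the region on its TSS scored 858, 632, 588 and 474. The 3 genes are near-identical copies that may share reads, so they count as 1 observation with an uncertain position.

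For the effect of T0, ranks in T0 were compared with Veh and ranks in T0-LPS with LPS, which again share no list with each other. In T0 against Veh 1523 members ranked higher and 838 lower, beside 12.8% and 12.9% of all regions. In T0-LPS against LPS 1474 ranked higher and 861 lower, beside 13.0% and 13.0%. This split depended on the scale: with scores over the list median and a 1.5-fold limit, 309 members were higher and 393 lower in T0 against Veh, beside 2.33% and 5.97% of all regions. With percentiles among all peaks of the own list, 259 were higher and 2464 lower, beside 1.96% and 33.1%. In T0-LPS against LPS the fold limit gave 378 higher and 258 lower, beside 3.65% and 4.77%. With own-list percentiles it gave 812 higher and 1252 lower, beside 7.32% and 18.4%. Higher calls thus outnumbered lower ones in T0 against Veh by rank but by neither of the other scales. The lists of these comparisons also served for LPS, so the T0 and LPS results are not independent of each other.

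Members that moved with T0 in both comparisons were few. They numbered 341 higher, 121 lower and 330 in opposite directions, beside 2.50%, 2.52% and 3.60% of all regions. Across members the T0 differences of the pair had r = 0.05 and the LPS differences r = 0.35, against 0.08 and 0.64 for other regions. These are descriptions over regions that share the same 4 lists. Rbfa, a mitochondrial ribosome assembly factor, had the largest difference shared by the pair, with scores of 202 in Veh, 318 with T0, 160 with LPS and 268 with T0-LPS and rank differences of 38.7 and 28.6 points. The shared start of Rnf25, a ubiquitin ligase, and Stk36, a kinase, went the other way with 652, 232, 533 and 293 and differences of -36.8 and -24.2 points. These 2 regions were picked for differences of the same sign in both comparisons, so the agreement of the pair follows from the choice. The next higher were Impa2, Tmem221, Dennd5a and Qrich1, and the next lower were Hesx1, Cd300ld3, Diras2 and Prpf18. Single comparisons gave larger differences that the other did not share: Hsd17b10, a mitochondrial dehydrogenase, scored 743 in Veh, 259 with T0, 452 with LPS and 437 with T0-LPS and ranked 39.0 points lower in T0 than in Veh but 5.89 points higher in T0-LPS than in LPS. Epop, a chromatin factor, scored 221, 199, 448 and 168 and ranked 39.4 points lower in T0-LPS than in LPS but 14.1 points higher in T0 than in Veh.

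**Figure D5:**
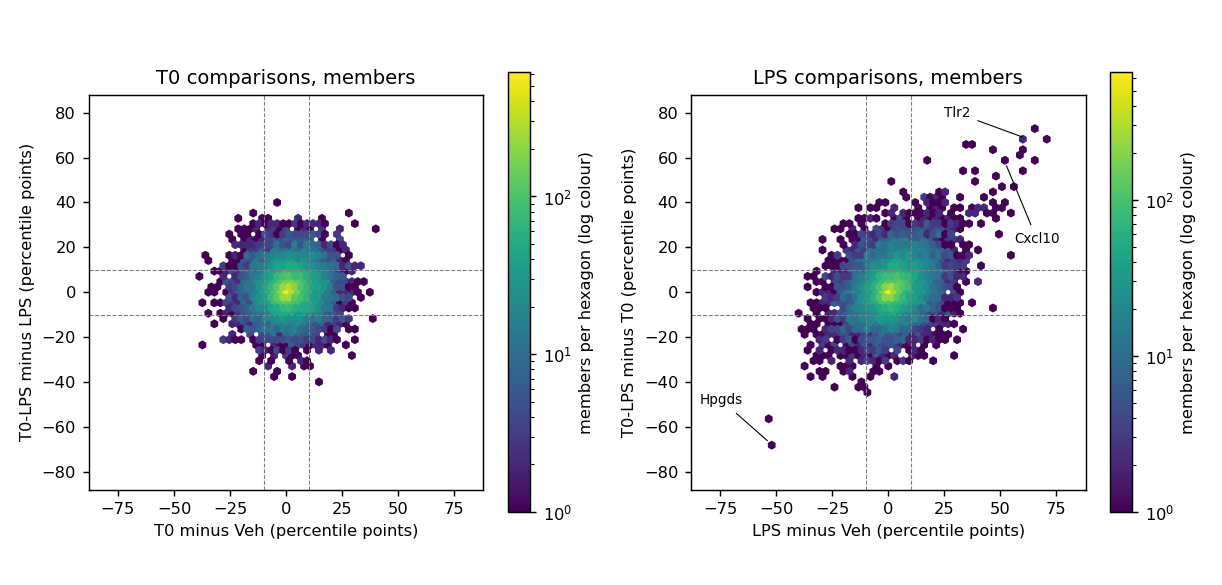
Rank difference of each member in percentile points, left for T0 (T0 minus Veh against T0-LPS minus LPS) and right for LPS (LPS minus Veh against T0-LPS minus T0), with hexagons coloured by the number of members on a log scale and dashed lines at 10 points either way. The LPS panel is stretched along the diagonal (r = 0.35) with Tlr2 and Cxcl10 toward the upper end and Hpgds at the lower end, and the T0 panel is round (r = 0.05).

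Of 21 LXR target genes, 14 had a constitutive promoter region. In T0 against Veh, 4 of their 16 regions ranked higher and 1 lower, and in T0-LPS against LPS 2 ranked higher and 1 lower, beside 12.8% and 12.9% of all regions in the former and 13.0% in each direction in the latter. Under the fold limit 1 (6.25%) was higher and 1 lower in each of these comparisons. Of all regions, 2.33% and 5.97% were called by that limit in the former and 3.65% and 4.77% in the latter. Scd1, the stearoyl-CoA desaturase, scored 135 in Veh, 230 with T0, 182 with LPS and 168 with T0-LPS and ranked 28.8 points higher in T0 than in Veh, but 4.12 points higher in T0-LPS than in LPS. Mertk, a receptor for the uptake of apoptotic cells, scored 304, 297, 312 and 300 and ranked 20.1 points higher in T0 than in Veh, although its score was not higher. Srebf1, the regulator of fatty acid synthesis, scored 173, 160, 181 and 144, with a rank 11.0 points higher in T0 than in Veh and 1.01 points lower in T0-LPS than in LPS. Arl4c, a small GTPase of cholesterol export, scored 584, 516, 378 and 474, with ranks 10.3 and 19.8 points higher with T0. Abca1, the cholesterol exporter, scored 648, 510, 674 and 653 and stayed within 10 points in both T0 comparisons. Fasn, the fatty acid synthase, scored 344, 258, 440 and 380 and ranked 26.6 points higher in LPS than in Veh. Apoe and Abcg1 had no constitutive promoter region: Apoe had peaks in Veh and T0 at scores of 133 and 92, and Abcg1 in Veh at 90.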

How the data were processed

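The deposited peak lists give each peak an integer score on an unnamed scale, and the authors made 1 list per group from 4 pooled libraries. Per the methods and the submitters' notes, cutadapt, Bowtie2, SAMtools, MACS2 and bedtools were used on build mm10, with a fixed shift and extension of reads in peak calling. The versions are listed in the methods for all of these but Bowtie2 and are not repeated here, and the authors kept peaks in regions with H3K27ac or H3K4me2 in other macrophage data. Here peaks that overlapped by at least 1 bp were merged, and midpoints were compared with 41451 TSSs of protein-coding transcripts of the GENCODE vM21 basic annotation. Motif windows came from RefSeq and GRCm38.p6, and 200 of 200 windows checked were equal to the genome. Python 3.11.15, numpy 2.4.6, pandas 2.3.3 and scipy 1.17.1 were used, and the code was tested on simulated data. The members, gene lists and limits were chosen with earlier results of these data known. Named members are those with the highest and lowest mean rank, the greatest width and the largest rank differences, those at the 1 kb limit, and genes of the fixed lists, with exceptions stated, and a few genes that the rule names are not reported here. Tests were left out for lack of replicate lists. Depth per library was not given in the files.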

Additional observations from a re-analysis of the deposited data

How the results depend on the processing

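The 2 kb, any-base and 1-TSS settings were recomputed for the number and shares of members only, and the 5-point and 20-point limits for the counts of single comparisons only. Of the values that answer a comparison 56 stayed within their limits and 54 moved. These are counts, shares and widths, which have no sign, but the split of higher against lower calls turned with own-list percentiles in T0 against Veh, LPS against Veh, T0-LPS against LPS and the T0 pair, and with the fold limit in T0 against Veh. Each limit is 1.5 times a count, or the 95% interval of a share or median width. No paired analysis was possible because each group has 1 pooled list. For the same reason no library could be left out. The depth behind the lists is unknown.

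The share of regions in all 4 lists that were members was 36.1% with a 500 bp window, 42.7% with 2 kb, 40.1% when any base counted, 34.8% with 1 TSS per gene, 44.0% with a score minimum of 200 and 37.9% with single-peak regions. The share of genes was 45.7%, 48.9%, 44.5%, 38.1% and 43.4% for the same settings without the any-base one. Median widths in Veh, T0, LPS and T0-LPS were 583, 495, 550.5 and 523 bp with 500 bp, 619, 535, 586 and 555 bp with the score minimum and 544, 466, 513 and 492 bp with single-peak regions. With own-list percentiles, T0 against Veh gave 259 higher and 2464 lower, LPS against Veh 932 higher, T0-LPS against LPS 812 higher, the T0 pair 30 higher and 478 lower, and the LPS pair 459 higher. In the order T0 against Veh, LPS against Veh, T0-LPS against LPS and T0-LPS against T0, a 5-point limit gave 3089, 3445, 2963 and 3353 higher and 1916, 1864, 1990 and 2078 lower, and a 20-point limit 247, 464, 259 and 563 higher and 137, 194, 130 and 244 lower. The 1.5-fold limit gave 309, 521, 378 and 816 higher and 393, 372, 258 and 365 lower. The gene-list counts under that limit were added after the data were seen.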

Other observations

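Some gene groups in the constitutive promoter regions had not been described above. Of the 45 regions of cyclins and cyclin-dependent kinases, 1 ranked higher and 6 lower in T0 against Veh, beside 12.8% and 12.9% of all regions, so the lower calls (13.3%) were near that share. In LPS against Veh 5 (11.1%) ranked higher and 8 (17.8%) lower, beside 18.1% and 19.0% of all regions. Under the fold limit 0 were higher and 6 (13.3%) lower, beside 6.65% and 9.35% of all regions. Cdk15 scored 437 in Veh, 259 with T0, 174 with LPS and 118 with T0-LPS. Of the 22 regions of vacuolar ATPase genes, which acidify lysosomes, 7 ranked higher and 1 lower in T0 against Veh and 6 higher and 1 lower in LPS against Veh, where 18.1% and 19.0% of all regions were called. Under the fold limit 1 (4.55%) was higher and 0 lower in T0 against Veh, beside 2.33% and 5.97% of all regions. In LPS against Veh that limit gave 0 and 0, beside 6.65% and 9.35%. Atp6v1b2, whose region also lies at the start of Slc18a1, scored 337 in Veh, 279 with T0, 393 with LPS and 294 with T0-LPS. Zfp genes, which encode zinc finger proteins, had 293 of 391 genes with a member. Of their 313 regions, 20 (6.39%) ranked higher and 38 (12.1%) lower in T0 against Veh, the latter near the share of all regions. Of 12 Toll-like receptor genes 6 had a member. Tlr4 scored 1154 in Veh, 1063 with T0, 1047 with LPS and 818 with T0-LPS. Percentile 90 of all regions in all 4 lists was 995, 802, 864 and 784 in that order, so Tlr4 was above it in each list. Tlr2 was the only one of the 6 called higher in LPS against Veh. Tlr5, the flagellin receptor, scored 363, 262, 230 and 139 in that order.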
